A study of Homo sapiens with 6 samples.

Results

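Transcripts of 10 genes for cellular iron uptake, storage, export and sensing were followed in RKO cells in which the E3 ubiquitin ligase gene TRIM21 was knocked down. RKO is a long-used human cell line that was grown from a poorly differentiated carcinoma of the colon. The genes were chosen by name (TFRC, STEAP3, SLC11A2, FTH1, FTL, NCOA4, SLC40A1, ACO1, IREB2 and FBXL5), with their measured changes in this same comparison already known, so those changes are given as a description without p-values and support nothing further. All 10 of 10 were found among the 28278 rows of the count tables, and all 10 passed the filter on low counts. The knockdown group, shTRIM21, held 3 libraries of cells stably carrying a lentiviral short hairpin RNA against TRIM21, and the control group, shControl, held 3 libraries of cells with a lentiviral scrambled hairpin. Cells of both groups had been kept under puromycin at 5 µg/ml for 2 to 3 weeks, starting 36 h after infection. The labels describe a single hairpin or pool per arm and do not say whether replicates came from separate infections, so the spread between replicates may be technical. One label field names mouse tissue, while the organism, the line and all gene symbols are human.

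Cells take up iron mainly as transferrin, which binds the transferrin receptor at the surface and is carried into endosomes, where the iron is released, reduced and moved into the cytosol. Iron that is not used is stored inside ferritin, a shell of heavy and light chains, or leaves the cell through ferroportin. The balance is set largely after transcription: when iron is short, the iron regulatory proteins bind hairpins called iron-responsive elements, which blocks translation where the hairpin lies in a 5′ UTR and shields the transcript from decay where it lies in the 3′ UTR of the transferrin receptor. RNA counts can therefore show changes in stability or synthesis but not changes in translation of ferritin or ferroportin.

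The elements are printed because the described effect of the regulatory proteins differs between a 5′ UTR element and those in the TFRC 3′ UTR. A pattern was searched on the sense strand of protein-coding GENCODE 29 transcripts: an unpaired C, 5 bases, the loop CAGTGN, and 5 bases able to pair with the first 5 (Watson-Crick or G-U). It was present in 4 of the 10 genes, FTH1, FTL and SLC40A1 in the 5′ UTR and TFRC in the 3′ UTR, and in 280 (1.43%) of 19627 protein-coding genes anywhere in a transcript. Only 31 genes (0.158%) held it in a 5′ UTR and 128 (0.652%) in a 3′ UTR. When 1 extra unpaired base was allowed on the 3′ side of the stem, a search added after seeing the data, SLC11A2 and IREB2 also matched in their 3′ UTRs, while the share of all genes rose to 4.75%. A match is a run of letters and was not tested for binding. In the lines that follow, each from an exon on GRCh38, the capitals mark the unpaired C and the loop.
FTH1, 5′ UTR, chr11:61967574-61967603, minus strand: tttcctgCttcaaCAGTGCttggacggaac
FTL, 5′ UTR, chr19:48965334-48965363, plus strand: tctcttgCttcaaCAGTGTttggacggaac
SLC40A1, 5′ UTR, chr2:189580661-189580690, minus strand: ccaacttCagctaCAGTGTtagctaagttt
TFRC, 3′ UTR, chr3:196050979-196051008, minus strand: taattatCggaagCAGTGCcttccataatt
TFRC, 3′ UTR, chr3:196050575-196050604, minus strand: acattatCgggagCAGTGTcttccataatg
TFRC, 3′ UTR, chr3:196050510-196050539, minus strand: tctgtatCggagaCAGTGAtctccatatgt
TFRC, 3′ UTR, chr3:196050463-196050492, minus strand: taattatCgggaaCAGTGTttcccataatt
SLC11A2, 3′ UTR, 1 extra base, chr12:50988269-50988298, minus strand: tagccatCagagcCAGTGTgtttctatggt

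The ferritin elements share the same upper stem, and their matches start at bases 65 (FTH1) and 41 (FTL) of the longest transcript. The 4 TFRC matches start at bases 3394, 3798, 3863 and 3910 of a transcript of 5111 bases whose coding part ends at base 2450. The SLC11A2 match was in 5 of the gene's 11 protein-coding transcripts in the basic annotation; the counts are per gene and do not separate these isoforms.

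**Figure D1:**
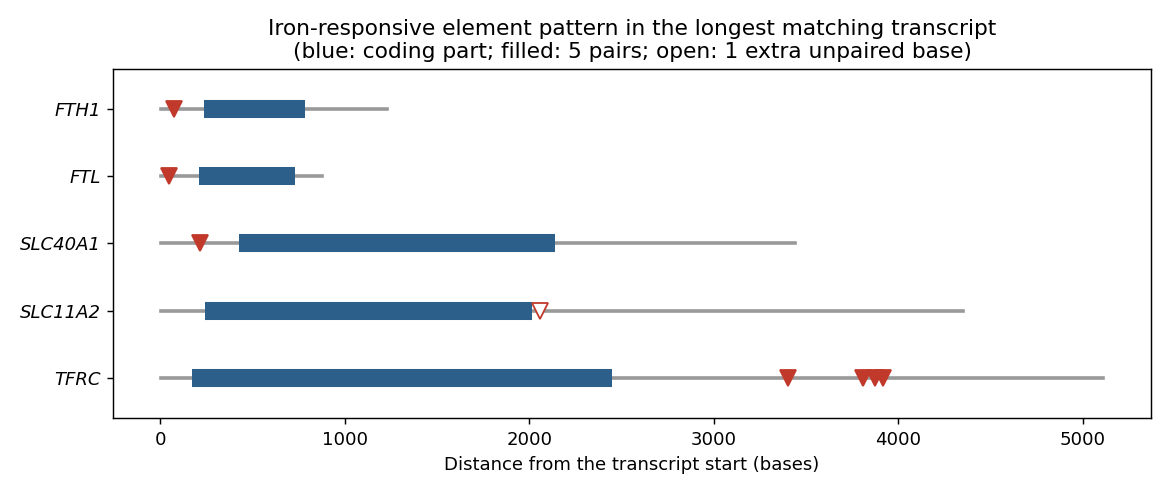
Positions of the iron-responsive element pattern (triangles) along the longest matching transcript of 5 genes, in bases from the transcript start; the thick bar is the coding part, and the open triangle marks the SLC11A2 match with 1 extra unpaired base. FTH1, FTL and SLC40A1 carry 1 match each before the coding part, and TFRC carries 4 after it.

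Knockdown of TRIM21 was incomplete at the RNA level. TRIM21 was at 7.97, 6.92 and 7.85 CPM (counts per 1000000, scaled with edgeR's TMM factors) in the shTRIM21 libraries and at 12.2, 11.5 and 9.47 CPM in the shControl libraries. The groups did not overlap, and the change was -0.54 on the log2 scale (SE 0.12, edgeR adjusted p = 0.00424). Total counts ran from 33499827 to 44466137 per library, and ribosomal RNA rows took 14.7% to 36.9% of them, with 2 shControl libraries (replicates 1 and 3) at the top of that range. Epithelial markers were abundant, with a summed level of 3760 to 3970 CPM in shTRIM21 and 4800 to 5370 CPM in shControl, and 3 of 5 were called (KRT8 and KRT18 lower, CDH1 higher). The 2 mesenchymal markers, VIM and ZEB1, summed to 5.01 to 7.20 and 10 to 11.9 CPM, both called lower. The part of these differences in the iron gene values was not tested. Of the intestinal markers, CDX2 was at 22.1 CPM in shControl while CDX1 was listed at 0. CD163 (macrophage), TTR and HAMP (hepatocyte) were listed at 0 in all 6 libraries.

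Across all genes, 3146 of 15131 tested genes (20.8%) were called, meaning an adjusted p under 0.05 in edgeR's quasi-likelihood test; 1479 (9.77%) were called higher and 1667 (11.0%) lower in shTRIM21. Of the 10 iron genes, 2 were called, TFRC and SLC11A2, both higher. The groups did not overlap for 5 of the 10 (TFRC, FTH1, SLC40A1, SLC11A2 and FBXL5), against 37.7% of all tested genes. The median log2 fold change of the 10 was 0.046, and that of all tested genes 0.0054. Without shTRIM21 replicate 2 the number of called genes dropped to 1844, and calls higher made up 47.0% of all calls with TMM factors, 62.1% with upper-quartile factors and 93.0% with library sizes alone, where the median over all tested genes moved to 0.22.

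**Figure D2:**
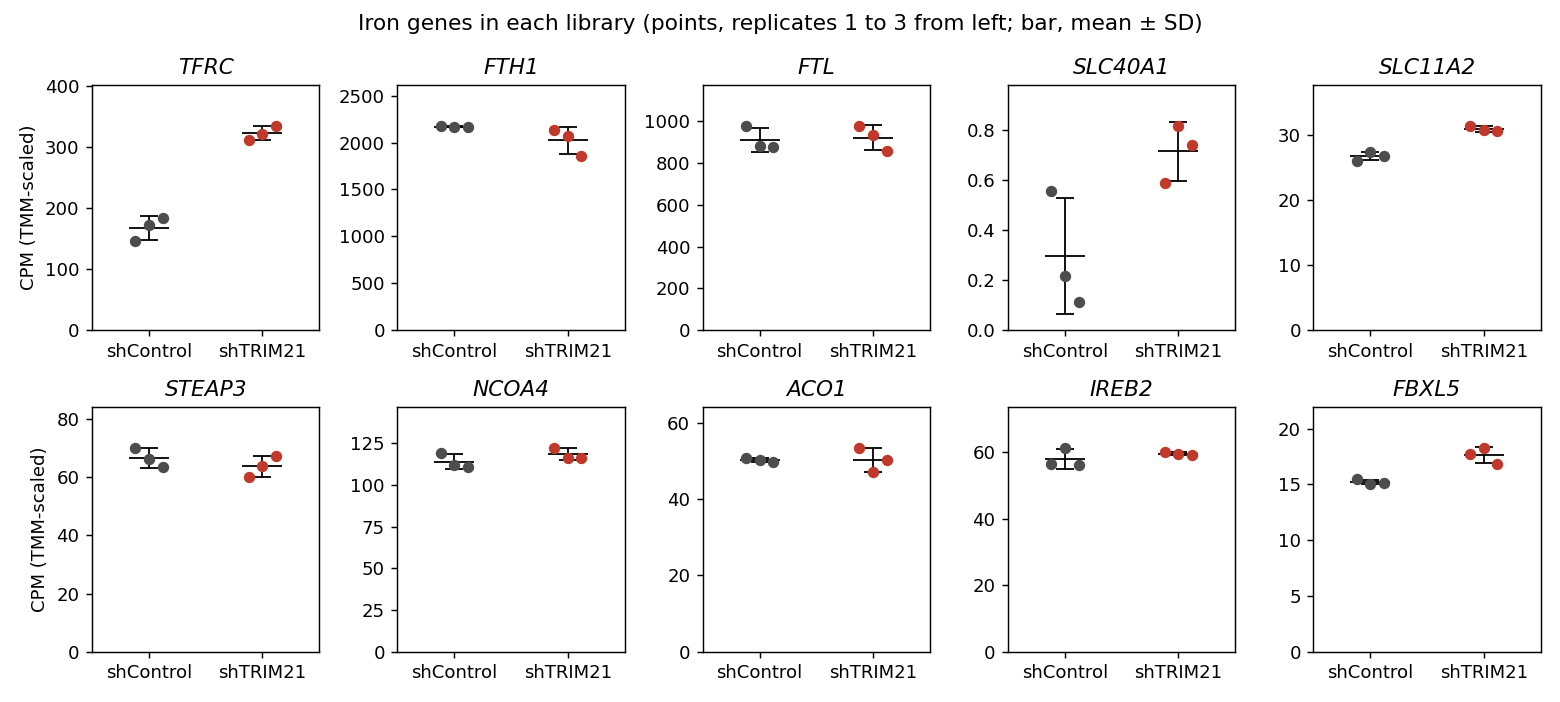
Level of each of the 10 iron genes in every library (y axis from 0, TMM-scaled CPM; points are libraries, the bar is the mean ± SD of 3). TFRC lies between 311 and 335 CPM in shTRIM21 and between 146 and 183 CPM in shControl, while FTL, STEAP3, NCOA4, ACO1 and IREB2 overlap between groups.

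The transferrin receptor transcript rose most clearly among the uptake genes. TFRC, which lies on chromosome 3 at 196049284 to 196082090 (GRCh38.p14), had 11685, 12599 and 12669 counts in shTRIM21 and 5495, 6310 and 6634 in shControl. Scaled levels were 311, 322 and 335 CPM against 146, 172 and 183 CPM. Every shTRIM21 library was above every shControl library, with the lowest shTRIM21 value well clear of the highest shControl value. The means were 323 ± 11.7 and 167 ± 19.2 CPM (SD, n = 3 each), a 1.93-fold difference with a log2 fold change of 0.95 (SE 0.071, 95% interval 0.80 to 1.10). In bulk RNA, a change in the number of cells of one kind and a change in RNA per cell cannot be told apart. By size, TFRC was the 177th of the 1479 genes called higher. It was called higher in 15 of 15 alternative analyses, with log2 fold changes from 0.86 to 1.17, and was 0.90 without shControl replicates 1 and 3.

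SLC11A2 encodes DMT1, the transporter that moves ferrous iron out of the endosome (chromosome 12, 50952263 to 51028886). Its levels were 31.5, 30.8 and 30.8 CPM in shTRIM21 and 26.1, 27.5 and 26.9 CPM in shControl. The libraries of each group lay close together and the groups did not overlap. The difference was small, 1.16-fold (log2 fold change 0.21, SE 0.066, 95% interval 0.069 to 0.35). SLC11A2 was called here but not in 9 of 15 alternatives, among them the fits without shTRIM21 replicate 1, 2 or 3 and those without shControl replicate 1 or 3. STEAP3, the endosomal ferrireductase that acts with the receptor (chromosome 2, 119223834 to 119265652), was at 60.3, 63.9 and 67.5 CPM in shTRIM21 and 70.3, 66.3 and 63.5 CPM in shControl. These ranges overlapped, and the log2 fold change was -0.062 (SE 0.062, 95% interval -0.20 to 0.071), which turned to 0.15 with library sizes alone. STEAP3 overlaps its antisense gene STEAP3-AS1, itself at 10.4 and 11.8 CPM on average in shTRIM21 and shControl. Strand use in the counting is not given in the sources used here, so reads of the pair may be shared.

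The ferritin transcripts were the most abundant of the set and differed little. FTH1, the heavy chain with the ferroxidase activity (chromosome 11, 61964285 to 61967634), was at 2137, 2073 and 1859 CPM in shTRIM21 and 2180, 2171 and 2165 CPM in shControl. All 3 shTRIM21 libraries were below the 3 shControl libraries, replicate 1 only slightly and replicate 3 by much more. FTH1 had a log2 fold change of -0.10 (SE 0.073, 95% interval -0.26 to 0.053) and was not called. The sign turned to 0.11 with library sizes alone. FTL, the light chain (chromosome 19, 48965309 to 48966879), was at 977, 934 and 857 CPM against 979.5, 882 and 876 CPM. Its groups overlapped, with a log2 fold change of 0.016 (SE 0.066, 95% interval -0.13 to 0.16). FTH1 overlaps BEST1 on the annotation, and ferritin genes have many processed pseudogenes: the rows FTH1P3 and FTHL18 were near 0 and FTHL17 and FTLP10 listed at 0, but how reads that match several copies were assigned is not given in the sources used here, so the ferritin levels are uncertain to that extent.

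NCOA4, the receptor that delivers ferritin to autophagosomes so that its iron can be recovered (chromosome 10, 46005088 to 46030623), was at 122, 116 and 116 CPM in shTRIM21 and 119, 112 and 111 CPM in shControl. Replicate 1 was the highest in both groups, and the groups overlapped. The NCOA4 log2 fold change was 0.054 (SE 0.053, 95% interval -0.060 to 0.17).

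Ferroportin, the only known cellular iron exporter of mammals, was barely expressed. SLC40A1 (chromosome 2, 189560590 to 189580786) had 22, 32 and 28 counts in shTRIM21 and 21, 8 and 4 counts in shControl. In CPM this was 0.586, 0.817 and 0.740 against 0.556, 0.218 and 0.110. The highest shControl library lay just below the lowest shTRIM21 library. The fitted log2 fold change was 1.26 (SE 0.47, 95% interval 0.25 to 2.27), and the gene was not called. Single libraries decide this value: it was 2.10, and called, without shControl replicate 1, and 0.87 without shControl replicate 3. It was also called with library sizes alone.

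The sensing genes differed little. ACO1 (chromosome 9, 32384643 to 32454769), which as IRP1 switches between a cytosolic aconitase and an RNA-binding form, was at 53.6, 47.2 and 50.3 CPM in shTRIM21 and 50.8, 50.4 and 49.7 CPM in shControl, and the shTRIM21 range enclosed the shControl range. Its log2 fold change was 0.0022 (SE 0.062, 95% interval -0.13 to 0.14). IREB2, or IRP2 (chromosome 15, 78437431 to 78501453), was at 60.1, 59.5 and 59.2 CPM against 56.5, 61.5 and 56.1 CPM, with shControl replicate 2 above all others. Its log2 fold change was 0.038 (SE 0.059, 95% interval -0.087 to 0.16), which turned to -0.052 without shControl replicates 1 and 3. FBXL5, the iron-sensing ubiquitin ligase subunit that marks IREB2 for destruction when iron is plentiful (chromosome 4, 15604381 to 15681569), was at 17.7, 18.3 and 16.9 CPM in shTRIM21 and 15.45, 15.02 and 15.15 CPM in shControl. The FBXL5 groups did not overlap and the difference was 1.16-fold (log2 fold change 0.21, SE 0.081, 95% interval 0.039 to 0.39), about as large as that of SLC11A2. FBXL5 was called only with upper-quartile factors among the 15 alternatives, and it overlaps FAM200B on the annotation.

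**Figure D3:**
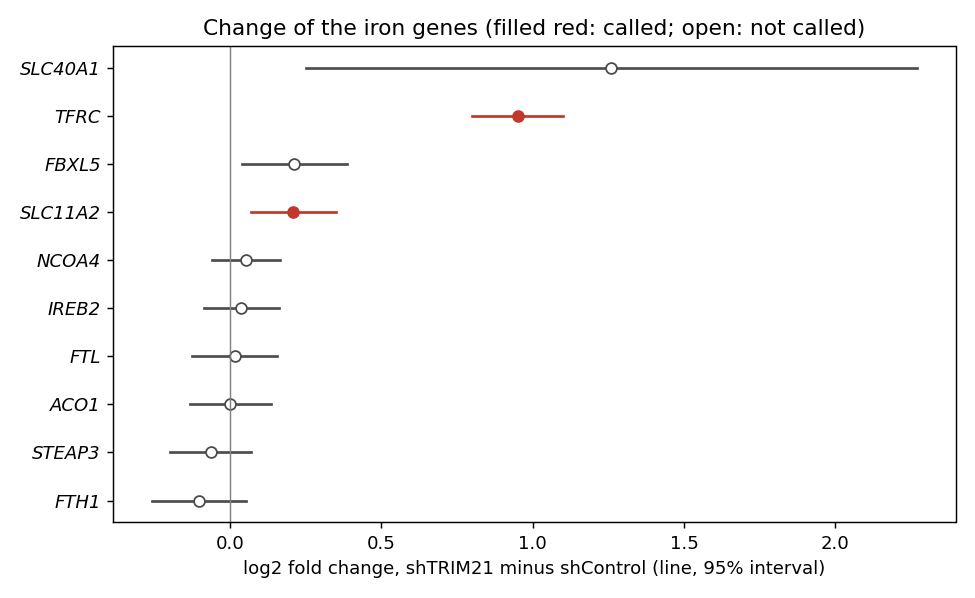
Log2 fold change of the 10 iron genes (x axis, shTRIM21 minus shControl) with 95% intervals not adjusted for the number of genes; filled red points are called genes. TFRC at 0.95 stands clear of 0 with a narrow interval, SLC40A1 at 1.26 has the widest interval, and 6 of the other genes have intervals that include 0.

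Levels were compared between genes per kilobase of the longest annotated transcript. In shControl FTH1 was highest at 1767 ± 6.14 CPM per kb (SD, n = 3), followed by FTL at 1039 ± 66.3. TFRC at 32.6 ± 3.76 and NCOA4 at 32.1 ± 1.25 CPM per kb came next, and their libraries overlapped. STEAP3 (15.7 ± 0.799 CPM per kb), IREB2 (9.13 ± 0.472), ACO1 (6.73 ± 0.0710), SLC11A2 (6.17 ± 0.156) and FBXL5 (4.49 ± 0.0652) followed in that order without overlap between neighbours, and SLC40A1 was last at 0.0857 ± 0.0676. In shTRIM21 TFRC stood at 63.1 ± 2.29 CPM per kb, clear of NCOA4 at 33.3 ± 1.02, and SLC11A2 at 7.13 ± 0.0970 overlapped ACO1 at 6.75 ± 0.425. With the median transcript length in place of the longest, which counts short fragments of the annotation, TFRC in shControl came to 298 CPM per kb; FTH1, FTL and TFRC kept the first places and SLC40A1 the last, while the order of the other 6 changed.

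**Figure D4:**
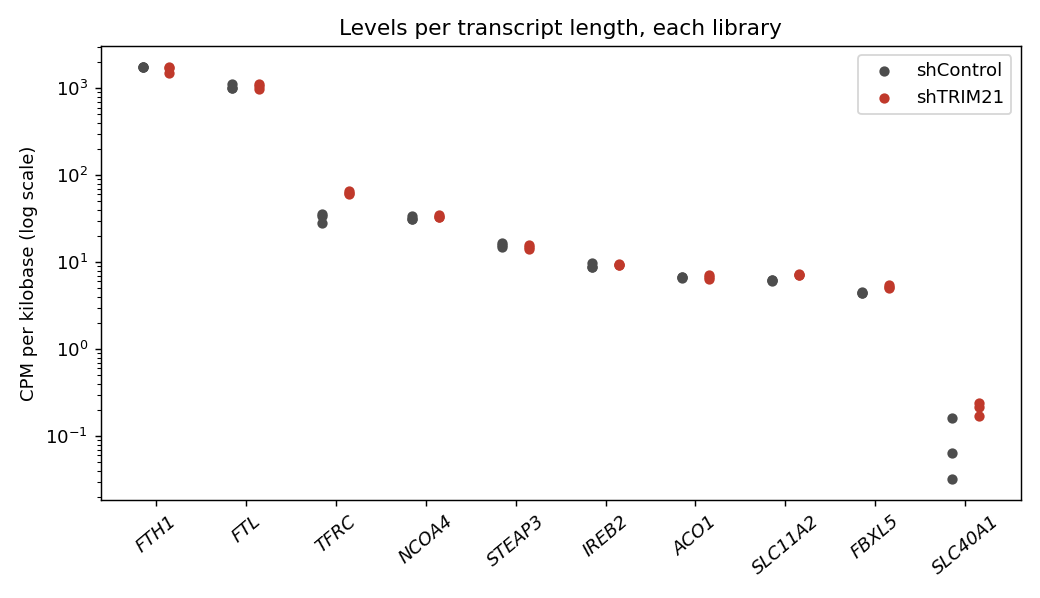
Level of the 10 iron genes per kilobase of transcript (y axis, CPM per kb, log scale; points are single libraries, gray shControl and red shTRIM21), ordered by the shControl mean. The ferritin genes lie between 976 and 1774, TFRC moves from about the level of NCOA4 to a clearly higher one, and SLC40A1 lies below all others.

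Ratios within a library do not depend on library scaling, but their size depends on the transcript length used, here the longest. With the median length the shControl means were 78.8 CPM per kb for IREB2 and 13.9 for ACO1. For TFRC and FTH1 they were 298 and 2760 CPM per kb. Per transcript length, TFRC amounted to 3.50%, 3.73% and 4.33% of FTH1 in shTRIM21 and to 1.61%, 1.90% and 2.03% in shControl, so that uptake receptor RNA was higher relative to storage RNA in every shTRIM21 library. The heavy to light ferritin ratio was 1.56, 1.59 and 1.55 in shTRIM21 and 1.59, 1.76 and 1.77 in shControl. Here shTRIM21 replicate 2 and shControl replicate 1 were nearly equal. IREB2 exceeded ACO1 by a ratio of 1.32 to 1.48 in shTRIM21 and 1.31 to 1.44 in shControl, and these ranges overlapped.

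Set beside the elements printed above, TFRC, with matches in its 3′ UTR, was at a log2 fold change of 0.95. SLC11A2 and IREB2 were at 0.21 and 0.038, but matched in the 3′ UTR only in the search added after seeing the data. The genes with a 5′ UTR match were at -0.10 (FTH1), 0.016 (FTL) and 1.26 (SLC40A1, with few counts). Values of 3 other transcripts reported to carry such elements are given beside them. EPAS1, the HIF-2α gene, fell from 46.60, 41.63 and 45.04 CPM in shControl to 32.03, 29.00 and 34.48 CPM in shTRIM21 (log2 fold change -0.48, SE 0.074, edgeR adjusted p = 0.000376). CDC42BPA, a kinase gene, fell by 0.29 on the log2 scale (SE 0.063, edgeR adjusted p = 0.0045). No match was found in the CDC42BPA transcripts searched, with or without the extra base. For EPAS1 and CDC42BPA the groups did not overlap, and each call was lost with library sizes alone. CDC14A, a phosphatase gene, matched in the 3′ UTR of 1 of its 7 protein-coding transcripts in the basic annotation. It was at -0.27 (SE 0.15), not called. TF, which is described below and is not among these 3, held a match without an extra base in its 3′ UTR and was at 0.87. The element of EPAS1 lies in the 5′ UTR, on the plus strand, with capitals as before.
EPAS1, 1 extra base, chr2:46297478-46297507: gtacaatCctcggCAGTGTcctgagactgt

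Of 86 further iron and heme genes, grouped by role, 80 were tested, 8 were called higher and 11 lower, beside 9.77% and 11.0% of all tested genes, so these counts lie near the background. Their median log2 fold change was -0.0066. Without shTRIM21 replicate 2 the counts were 4 and 7, without shControl replicate 3 there were 5 called higher, and with library sizes alone 1 was called lower.

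Iron entry and export genes outside the 10 moved both ways: of 10 tested, 3 rose and 3 fell, with a median of 0.012. This is a larger share than the 20.8% called of all tested genes, but the list was not tested as a set. Of the relatives of STEAP3, STEAP1 and STEAP2 fell, and STEAP4 had too few counts to be tested. STEAP1 went from 18.2, 19.3 and 15.1 to 10.3, 11.7 and 9.99 CPM (log2 change of -0.71, SE 0.11, edgeR adjusted p = 0.000289). STEAP2 fell by 0.38 on the log2 scale (SE 0.097, edgeR adjusted p = 0.0115). With library sizes alone STEAP2 was at -0.19 and was not called. LCN2, which carries iron bound to siderophores, fell by 1.28 (SE 0.35, edgeR adjusted p = 0.0173) from a level of only 1.15 ± 0.0796 CPM (SD, n = 3), and its call was lost in 5 of 15 alternatives, including the fits without shTRIM21 replicate 1, without shTRIM21 replicate 2 and without shControl replicate 3. HFE, whose product binds the transferrin receptor, rose from 13.9, 12.5 and 13.6 to 18.7, 17.1 and 16.3 CPM (log2 change of 0.38, SE 0.089, edgeR adjusted p = 0.00713). HFE overlaps HFE-AS1. TF, the transferrin gene, was at 4.98, 7.84 and 4.49 CPM in shTRIM21 and 3.47, 2.75 and 3.28 CPM in shControl (log2 fold change 0.87, SE 0.20, edgeR adjusted p = 0.00668). It overlaps SRPRB, and its call was lost without shTRIM21 replicate 2 (0.57, edgeR adjusted p = 0.0581, within a range of 2.79e-05 to 0.0581 over the alternatives). The other hepatocyte markers beside TF were absent or nearly so, with TTR and HAMP listed at 0 and ALB at 0.00888 and 0.0460 CPM on average in shTRIM21 and shControl. CYBRD1, a surface ferrireductase, rose by 0.22 (SE 0.075, edgeR adjusted p = 0.0485), a call lost in 10 of 15 alternatives, including each fit without one of the 6 libraries.

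Among 6 genes of transferrin receptor trafficking, 2 rose and 1 fell (median 0.026), beside 20.8% called of all tested genes. This list was not tested as a set either. RAB11A, the GTPase of the recycling endosome that returns the receptor to the surface, rose from 105, 107 and 108 CPM in shControl to 177, 167 and 163 CPM in shTRIM21, with the groups far apart (log2 fold change 0.67, SE 0.052, edgeR adjusted p = 5.26e-07). VPS35, a retromer subunit, rose by 0.16 (SE 0.049, edgeR adjusted p = 0.0335), a call lost in 10 of 15 alternatives, including each fit without one of the 6 libraries. EHD1, another recycling factor, fell by 0.35 (SE 0.054, edgeR adjusted p = 0.000354), from 98.0, 92.9 and 99.9 to 75.6, 76.3 and 76.4 CPM, a call lost with library sizes alone. SNX3, EXOC6 and PICALM were not called.

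Of 7 tested iron chaperones and sensing partners, 1 rose and 1 fell (median 0.0076). BDH2, an enzyme linked to the synthesis of a mammalian siderophore, was at 5.46, 4.54 and 4.41 CPM in shTRIM21 and 1.38, 1.69 and 1.33 CPM in shControl. Every shTRIM21 library was more than 2 CPM above every shControl library (log2 fold change 1.71, SE 0.19, edgeR adjusted p = 1.46e-05). PCBP2, which hands iron to ferritin and other proteins, fell by 0.19 (SE 0.053, edgeR adjusted p = 0.0175), but was at 0.022 with library sizes alone. That call was also lost without shTRIM21 replicate 2, without shTRIM21 replicate 3, without shControl replicate 1 and without shControl replicate 3. SKP1, CUL1 and RBX1, which form the ubiquitin ligase with FBXL5, were at 0.15, 0.090 and 0.0076, none called. In the hepcidin axis edgeR called 0 of 6 tested genes, 0 had an unadjusted p under 0.05, DESeq2 also called 0, and HAMP and HJV were listed at 0.

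The genes ISCU and NFS1, a scaffold and the cysteine desulfurase of iron-sulfur cluster assembly in the mitochondrion, were at 0.038 (SE 0.076) and -0.089 (SE 0.072) on the log2 scale, not called. Of 11 genes of cytosolic cluster assembly, 1 was called (median -0.058): BOLA2 fell (-0.28, SE 0.075, edgeR adjusted p = 0.0155); its near-identical copy BOLA2B makes that count uncertain, and the call was lost in 4 of 15 alternatives, including the fits without shTRIM21 replicate 2, without shTRIM21 replicate 3 and without shControl replicate 2.

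Of 8 heme synthesis genes, 1 was called (median -0.16): ALAS1, the entry enzyme, fell. ALAS1 went from 71.4, 84.0 and 88.0 to 64.2, 65.7 and 64.9 CPM (log2 fold change -0.32, SE 0.071, edgeR adjusted p = 0.00488), a call lost with library sizes alone. Of 10 genes for heme breakdown and transport, 1 rose and 1 fell (median -0.021). HMOX1, the inducible heme oxygenase that frees iron from heme, fell from 30.8, 30.4 and 30.6 to 26.1, 24.5 and 26.7 CPM (-0.25 on the log2 scale, SE 0.068, edgeR adjusted p = 0.0175). The HMOX1 call was lost in 3 of 15 alternatives: with library sizes alone, where the value was -0.035, without shTRIM21 replicate 2, and without shControl replicates 1 and 3. SLC48A1, which carries heme out of lysosomes, rose by 0.32 (SE 0.094, edgeR adjusted p = 0.0256); the gene overlaps RAPGEF3 and HDAC7, and its call was lost in 5 of 15 alternatives, including the fits without shTRIM21 replicate 2, without shTRIM21 replicate 3, without shControl replicate 2 and without shControl replicate 3.

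**Figure D5:**
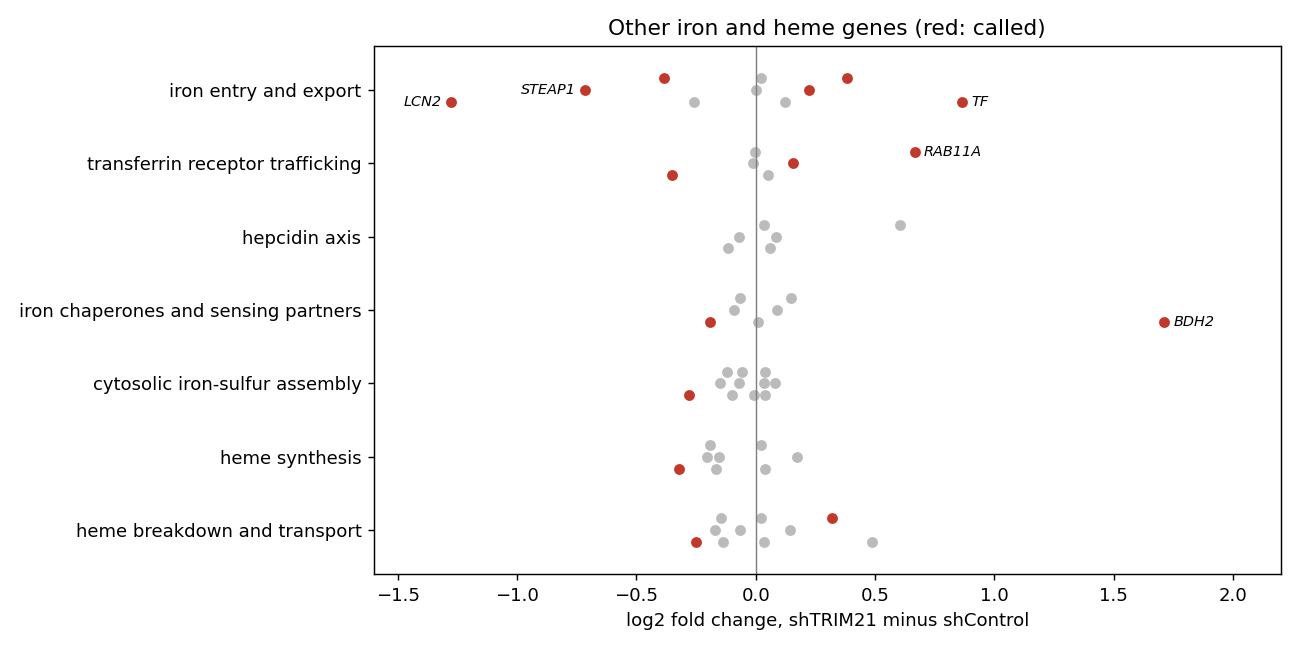
Log2 fold change (x axis, shTRIM21 minus shControl) of tested iron and heme genes outside the 10, in 7 roles (y axis); each point is a gene and red points are called genes, named where their change is beyond 0.45. BDH2 at 1.71, TF at 0.87 and RAB11A at 0.67 lie to the right, LCN2 at -1.28 and STEAP1 at -0.71 to the left, and most genes lie near 0.

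The patterns most like TFRC over the 6 libraries, by Pearson's r of log2(CPM + 1) among 11096 genes averaging 5 CPM or more, were those of TPM1 (r = 0.9985), CCDC74A (0.9983) and SYK (0.9981). Their log2 fold changes were 0.23, 0.55 and 0.60, each smaller than that of TFRC. For FTH1 they were INTS11 (0.9942), DCTPP1 (0.9923) and CDK1 (0.9915), with log2 fold changes of -0.056, -0.089 and -0.19. These values share the same libraries and the same difference between groups, and with this many genes compared over 6 points high values are a description only.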

How the data were processed

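Total RNA of 6 libraries was sequenced after ribosomal RNA depletion, per the labels' protocols. The deposited files hold 1 whole-number count per gene symbol and library, not normalized by the authors. The submitters' processing notes name TopHat2, edgeR 3.38.1, limma 3.52.2 and hg38 but state no role; for the counter, the annotation and strand use, nothing is given in the sources used here. Titles gave each library's group and replicate number.

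Counts were analysed with R 4.3.3 and edgeR 4.0.16: filterByExpr (minimum count 10, minimum total 15), TMM factors, and the quasi-likelihood F test between the groups, with 6 libraries and no covariate. Benjamini-Hochberg adjustment ran over all 15131 tested genes, and genes under 0.05 were called. SEs were derived from the log2 fold change and its F statistic, and intervals use the t distribution of the fit. The script was tested on simulated data. Replicate pairs differed by more than sampling noise (chi-square per degree of freedom 4.43 to 9.73). Counting error is largest for genes with few counts: SLC40A1, LCN2, BDH2, ALB and the ferritin pseudogenes and related copies.

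The 10 genes and the lists were chosen with earlier results of these data known. The lists were set by role in iron and heme metabolism, without use of the values. No list was tested as a set, and p-values of list genes come from the fit over all tested genes. Named genes are the 10, TRIM21, up to 4 called genes per list and direction with the smallest p-values, and the 3 genes most like TFRC and FTH1; uncalled list genes, SRPRB and other overlapping genes are named as context. Gene positions were read from RefSeq (GRCh38.p14), and transcripts, lengths and elements from GENCODE 29, which may differ from the authors' annotation. Alternatives were RLE, upper-quartile and no scaling factors, no low-count filter, ribosomal RNA rows left out, DESeq2 1.42.0, robust empirical Bayes, a replicate block, each library left out and, added after seeing the data, shControl replicates 1 and 3 left out together. Some items are not reported here.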

Additional observations from a re-analysis of the deposited data

How the results depend on the processing

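With library sizes alone 1969 genes were called, 138 of them lower, with 1 of the further iron and heme genes lower, and PCBP2 turned to 0.022. The iron genes called higher numbered 1 (TFRC) with no filter on low counts. With the replicate number as a block 2905 genes were called in all, and 1 of the 10 iron genes was called higher. Deviations from the group mean correlated at -0.015, 0.0086 and -0.081 between same-numbered libraries. Between libraries of unlike number the correlations ran from -0.042 to 0.055. Whether same-numbered libraries share a batch was not tested. Leaving out 1 library at a time gave 1844 to 2592 called genes (841 to 1211 higher, 1003 to 1398 lower), 4 to 6 higher and 7 to 11 lower of the further genes, and 1 to 2 of the 10 called higher. Without shControl replicates 1 and 3, where the lone control library is assumed to vary like the others, 1958 genes were called (854 higher, 1104 lower), with 5 of the further genes and 1 of the 10 called higher. Fits that leave libraries out also rest on fewer libraries, and the cause of these changes was not tested. Of 285 values of called further genes over the alternatives, 233 kept direction and call, 51 lost the call and 1 reversed. Of 150 values for the 10 genes, 135 moved by less than 1 SD between replicates and 15 by more, 9 of the 15 with library sizes alone. Depth limits SLC40A1, with 4 to 32 counts, and LCN2, with 12 to 44.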
